A study of Mus musculus with 38 samples.

Results

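The last stretch of the 5′ untranslated region (5′ UTR) before the start codon was examined in ribosome-protected fragments from mouse cortical neurons. For each protein-coding gene the longest transcript was taken, and its 5′ UTR segment was kept where it ended at the base next to the first coding (CDS) segment of the same transcript. Of 22478 genes, 20911 had a 5′ UTR segment on that transcript, and in 20756 of them the segment abutted the start codon. These 20756 segments were among 213150 5′ UTR segments of all transcripts. By length, 7673 were under 50 nt (median 22 nt), 6900 were 50 to 150 nt (median 88 nt) and 6183 were over 150 nt (median 270 nt). An exon boundary sets the far end of a segment, so 8323 of the transcripts also had 5′ UTR further upstream, in 11395 segments.

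The 38 libraries came from 14 groups of primary cortical cultures, all transduced with a lentivirus for the biotin ligase TurboID, all given biotin (for 30 min by the labels, while the methods give a shorter time after DHPG) and all treated with cycloheximide, which arrests elongating ribosomes, for 2 min. The methods place these 2 min before the biotin, so labelling followed the arrest. They describe no removal of cycloheximide, so exposure before lysis may have been longer than 2 min. In PSD95-TurboID cultures the ligase is fused to PSD95, the main scaffold of excitatory postsynapses, and in Pan-TurboID cultures it is spread through the cytosol. Expression is doxycycline-inducible, and the PSD95-TurboID construct, but not Pan-TurboID, which has no localization signal, carries PSD95 with its UTRs. Every culture gave an input library from the ribosomes before capture and a pulldown library from those captured on streptavidin. In the KCl experiment, cultures of each ligase were either resting or silenced with tetrodotoxin and DL-AP5 for 2 h and then depolarized with 55 mM KCl for 1 h, with 3 replicates in each of 8 groups. In the DHPG experiment, PSD95-TurboID cultures were silenced in the same way and given DHPG, which activates the group I class of metabotropic glutamate receptor, at 100 µM for 10 min, with 3 replicates of input and of pulldown and no resting group of its own. In the knockdown experiment, PSD95-TurboID cultures received 20 nM siRNA against Eif4g2 for 72 h and were resting or depolarized with KCl after silencing, with 2 replicates in each of 4 groups and no control siRNA group. The sources used here describe silencing for cultures that were then activated and do not say whether resting cultures were silenced too, so a part of silencing in the KCl differences cannot be told apart.

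A library held 5906281 to 35643247 counts by its deposited dataset total. In the coding regions of the chosen transcripts there were 2048601 to 14646331, and in the abutting segments 78357 to 1924111. As a check of the labelled cell type, the summed coding level of 7 neuron markers was 7303 to 11000 CPM (counts scaled to the library's coding total) in inputs, against 226 to 1229 for astrocyte markers, 38.8 to 524 for oligodendrocyte lineage markers and 1.28 to 24.8 for microglia markers. In pulldowns the same sums were 5385 to 9533, 254 to 1510, 13.6 to 349 and 0 to 14.1 CPM. One pulldown, replicate 2 of the depolarized PSD95 group, had densities within the range of inputs in all 3 length classes. The class comparisons and the counts of changed segments are given with and without it, as are some of the calls that changed. For PSD95 pulldown over input, 91 of 103 segments chosen for naming kept their call without it.

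In the scanning model of initiation, a small ribosomal subunit with initiation factors enters at the 5′ cap and moves along the 5′ UTR until it meets a start codon, where the large subunit joins. A purine 3 bases before the start codon and a G just after it favour recognition of the codon. Ribosomes in a 5′ UTR can also be translating upstream open reading frames, and genes such as Atf4 are known for control through them. A ribosome waiting at a start codon covers bases on both sides of it. Each fragment was counted here at the base where it began, with no offset, so a fragment that began before the start codon was counted in the 5′ UTR even where it covered the codon.

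The bases around the start codon are printed for a selection of segments on which the results turn, from those that rose or fell in pulldowns, those that rose with KCl, dense or well-counted short segments and those with a start codon other than ATG. Each line gives 15 transcript bases before the start codon in lower case, the start codon in capitals and the 6 bases after it, 5′ to 3′ on the coding strand, from the GRCm38 (mm10) genome.
Rabggtb: atttccggatggtgaATGggatct
Rpl32: ttgtcaaaaggcatcATGgctgcc
Dlg4: gccaggccccccaacATGgactgt
Slc25a3: cgccatcttaggaggATGttctcg
Slc12a5: cgccgcgcagccaccATGctcaac
Wdr6: agctccaggaacgtcATGgacgct
Prrc2b: tgacatttcatcgcaATGtccgat
Apba1: cccccgacgcccaccATGaaccac
Mapk6: tgtaagggtttcaaaATGgcagag
Irs1: ctgctccgcagcagcATGgcgagc
Scap: gtgacttagccgaggATGaccctg
Sh3kbp1: ctcgtcttggcgccaATGgtggag
Ybx1: accatcaccgcaaccATGagcagc
Mprip: ggccgcctagccgacATGtcggcg
Arhgap1: gcaccagaagcagccATGgaccct
Rpl13: gtataggaggcagccATGgcgccc
Actb: cgccaccagttcgccATGgatgac
Eif4g2: tgtcaagccgccaaaGTGgagagt
Mrtfa: atcacgaaagccaagGTGgatttc
Myc: cgagctgtttgaaggCTGgatttc
Vegfa: atcggaccagtcgcgCTGacggac

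Density was expressed relative to the coding region of the same gene. For a library and a length class, the relative density was the sum of segment counts divided by the sum of the counts expected if each segment had the counts per nt of its own CDS. A value of 1 means as many fragment starts per nt as in the coding region.

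Fragment starts were denser in short segments than in long ones in every library. In resting PSD95 inputs the relative density was 2.92 ± 0.316 (SD, n = 3) under 50 nt, 1.87 ± 0.323 at 50 to 150 nt and 1.15 ± 0.223 over 150 nt. In depolarized PSD95 inputs it was 3.25 ± 0.307, 2.05 ± 0.192 and 1.36 ± 0.124. In resting Pan inputs it was 3.00 ± 0.124, 1.94 ± 0.170 and 1.2 ± 0.133, and in depolarized Pan inputs 2.95 ± 0.185, 1.87 ± 0.229 and 1.22 ± 0.229. The classes kept this order in all 38 libraries. Under 50 nt exceeded 50 to 150 nt by 1.60-fold (1.4 to 1.90 over libraries) and 50 to 150 nt exceeded over 150 nt by 1.62-fold (1.46 to 1.74; permutation of signs over libraries, two-sided, p = 2e-05 for each, the smallest 100000 permutations can give). The 38 libraries are input and pulldown of 19 cultures, and with both averaged per culture, a test added after the data were seen, the order held in 19 of 19 cultures for both steps (exact permutation of signs, p = 3.81e-06 for each, the smallest it can give). With the first CDS segment in place of the whole CDS as reference, the folds were 1.65 and 1.26, and as medians over single segments they were 1.42 and 1.08, the latter higher in 29 of 38 libraries.

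**Figure D1:**
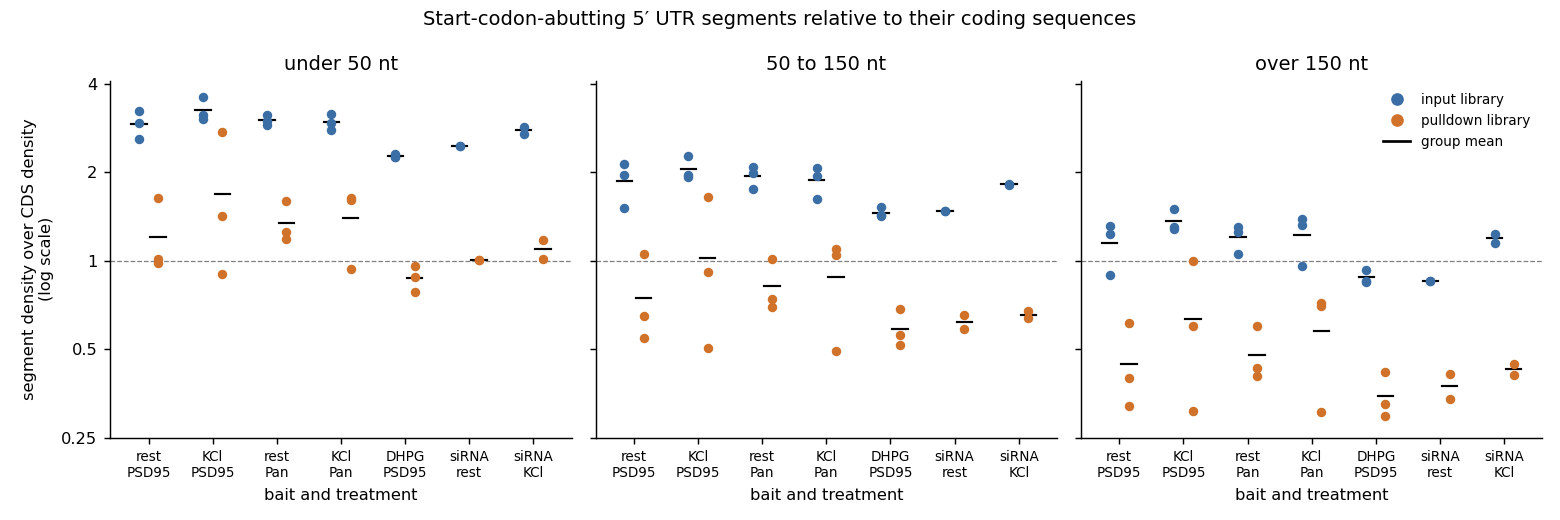
Relative density of segments that abut the start codon (log axis, 1 = counts per nt of the same genes' CDS) for each of the 38 libraries, by length class. Points are libraries placed by group, inputs beside pulldowns. Inputs lie above pulldowns in each class, except that replicate 2 of the depolarized PSD95 pulldowns, at 2.73 under 50 nt, lies within the range of the inputs, above the lowest at 2.24.

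In finer bins, the relative density of summed counts did not rise with length. The median over the 19 inputs was 4.69 for segments of 1 to 14 nt (2495 segments), 2.84 for 15 to 29 nt, 2.32 for 30 to 49 nt, 1.84 for 50 to 99 nt and for 100 to 150 nt, 1.68 for over 150 to 300 nt, 1.09 for over 300 to 600 nt and 0.747 above 600 nt (739 segments). Over the 19 pulldowns the medians ran from 1.83 in the shortest bin to 0.275 in the longest. As medians over single segments the middle bins had another order, at 1.68 for 50 to 99 nt, 1.82 for 100 to 150 nt and 1.88 for over 150 to 300 nt in inputs, and 0.526, 0.570 and 0.548 in pulldowns, between 2.67 and 1.16 (inputs) and 1.31 and 0.315 (pulldowns) in the shortest and longest bins. In the 8323 genes with both, the abutting segment was denser than the upstream segments in 38 of 38 libraries, by 1.58-fold (1.3 to 1.99; permutation of signs over libraries, p = 2e-05), and in 19 of 19 cultures (exact permutation of signs, p = 3.81e-06).

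**Figure D2:**
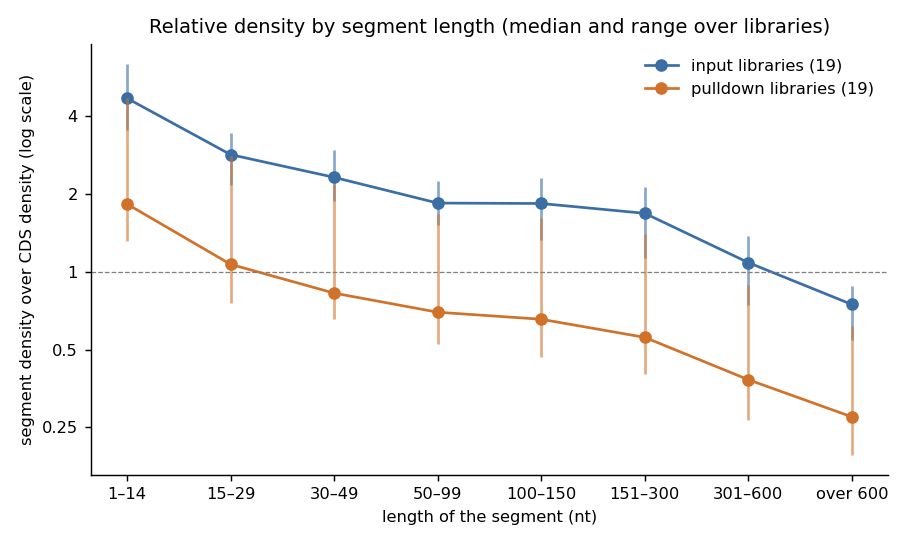
Relative density (log axis) against segment length in 8 bins (nt), for the 19 input and the 19 pulldown libraries. Points are medians over libraries and bars run from the lowest to the highest library. Density falls from 4.69 to 0.747 in inputs and from 1.83 to 0.275 in pulldowns between the shortest and the longest bin.

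Single segments differed far more than the classes did. Over the 38 libraries, 2906, 3468 and 3786 segments of the 3 classes had a CDS count of at least 1000 and an expected count of at least 20. Their median relative density was 1.65, 1.29 and 1.16, with the 5th to 95th percentile at 0.0806 to 7.33 under 50 nt, 0.123 to 5.05 at 50 to 150 nt and 0.0810 to 4.17 over 150 nt. A density above 1 was found in 67.3%, 61.1% and 56.3% of them. The 3 segments with the most counts held 6.60%, 5.80% and 3.14% of the counts of their class.

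Of the segments under 50 nt, Rpl13 and Arhgap1 had the highest relative densities among those well counted, and Actb, Basp1 and Rpl13 the most counts. Rpl13, a protein of the large ribosomal subunit, had a 6-nt segment with 27505 counts and a relative density of 223. Its density was 100 to 472 in inputs (median 307) and 50.0 to 387 in pulldowns (median 121), with overlapping ranges. Actb, cytoplasmic β-actin, also had a 6-nt segment, with 94917 counts and a density of 12. Arhgap1, a GTPase-activating protein, had 2 nt at a density of 37.9, and Basp1, a growth-cone membrane protein, 9 nt at 13.9. These segments are shorter than a ribosome footprint, so every fragment counted in them also covered the start codon. At 50 to 150 nt the densest were Polr2m (139 nt, density 36.7) and Brwd1 (145 nt, 17.0), and over 150 nt Pkd1 (313 nt, 17.7) and Rps20 (179 nt, 17.2). By counts, the largest over 150 nt was Tuba1a, an α-tubulin, with 234140. Its 250-nt segment ends at the same base as the 98-nt segment of Gm49450, which held 233650 counts, so those counts are shared and cannot be assigned to either gene.

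At the other end, 3474, 2175 and 1081 segments of the 3 classes had no count in any library. The CDS itself had no count in 1844, 1105 and 656 genes of these classes. Among the segments with adequate CDS counts, 67, 42 and 23 had no count. They included Ctcf, a chromatin insulator protein, with 0 counts over 9 nt against 52.5 expected, and Sri, a calcium-binding protein, with 0 over 132 nt, although its CDS held 7097 counts. The longest transcript of a gene need not be the one these neurons use.

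The bases at the start codon followed the known vertebrate preference. Of 20685 segments with sequence, 84.3% had a purine 3 bases before the start codon, 49.3% had G just after it, 41.1% had both and 7.56% had neither. Under 50 nt, segments with both were denser than those with neither in 38 of 38 libraries, by a median of 1.39-fold (1.14 to 2.06). At 50 to 150 nt they were denser in 37 of 38, by 1.23-fold, and over 150 nt in 23 of 38, by 1.01-fold. These ratios compare different genes and are descriptions.

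Letters inside the segment went with density differently by class. Segments over 150 nt that held an ATG were less dense than those without in 38 of 38 libraries, at a median ratio of 0.711 (0.558 to 0.837). At 50 to 150 nt the ratio was 1.06, above 1 in 31 of 38 libraries, and under 50 nt it was 0.897, above 1 in 4. An ATG was present in 10.9%, 37.7% and 71.9% of the segments of the 3 classes. The hexamer CGCGGC, searched like ATG on the coding strand only and sharing no bases with it, was present in 0.757%, 7.92% and 26.1%. It went with higher density over 150 nt (1.57, above 1 in 38 of 38 libraries) and with lower density under 50 nt (0.569, above 1 in 0 of 38). Length and base composition were not matched between segments with and without a motif.

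The annotated CDS began with a codon other than ATG after 28 segments. Whether each of these CDSs is complete at its start, so that its first codon is a start codon, was not tested. The codons were CTG in 16, GTG in 2, ACG, ATT and GAG in 2 each, and ACT, ATA, CAG and CCC in 1 each. The GTG starts were those of Eif4g2, an eIF4G-like initiation factor whose known start codon is GTG, and Mrtfa, a coactivator of serum response factor. Myc, a growth-promoting transcription factor, and Vegfa, an angiogenic growth factor, were annotated from an upstream CTG. Together the 28 segments had a relative density of 0.826 to 1.89 in inputs (median 1.29) and 0.317 to 1.22 in pulldowns (median 0.457). Single values were 1.71 in inputs and 0.762 in pulldowns for Myc, 1.59 and 0.671 for Vegfa, 2.29 and 1.24 for Mrtfa, and 0.959 and 0.608 for Eif4g2.

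Whether ribosomes captured by proximity labelling differ near the start codon from those of the whole culture is the comparison of pulldown with input. Segments were less dense in pulldowns in every class and in each experiment. In the KCl experiment (12 libraries each) the relative density was 1.41 ± 0.507 in pulldowns and 3.03 ± 0.251 in inputs under 50 nt, 0.866 ± 0.331 and 1.93 ± 0.216 at 50 to 150 nt, and 0.533 ± 0.210 and 1.23 ± 0.177 over 150 nt. The log2 differences were −1.18, −1.24 and −1.29 (permutation test, two-sided, p = 2e-05 and Benjamini-Hochberg adjusted p = 0.00014 over 21 comparisons for each), and −1.27, −1.33 and −1.38 without replicate 2 of the depolarized PSD95 pulldowns (permutation p = 2e-05 for each). By ligase and state, pulldowns under 50 nt had 1.21 ± 0.366 (resting PSD95), 1.68 ± 0.945 (depolarized PSD95), 1.34 ± 0.216 (resting Pan) and 1.39 ± 0.397 (depolarized Pan; SD, n = 3 each). The ranges overlapped only through replicate 2 of the depolarized PSD95 pulldowns. Input and pulldown of one number came from the same culture, and with the replicate number as a block (signs of the pair differences permuted exactly) the pulldown was lower in 12 of 12 pairs in each class, with p = 0.000488 and adjusted p = 0.00342.

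The DHPG and knockdown experiments gave differences of like size. In the DHPG experiment (3 libraries each), pulldowns had 0.872 ± 0.0875 and inputs 2.26 ± 0.0324 under 50 nt, 0.586 ± 0.0894 and 1.46 ± 0.0587 at 50 to 150 nt, and 0.347 ± 0.0638 and 0.877 ± 0.0453 over 150 nt. The ranges did not overlap, and the exact permutation p was 0.1, the smallest that 3 against 3 allows (adjusted p = 0.162). In the knockdown experiment (4 each), the pairs of means were 1.05 ± 0.0846 and 2.61 ± 0.189, 0.637 ± 0.0384 and 1.65 ± 0.198, and 0.401 ± 0.0448 and 1.02 ± 0.200, again without overlap (exact permutation p = 0.0286, the smallest 4 against 4 allows, adjusted p = 0.1). The log2 differences were −1.38, −1.32 and −1.35 with DHPG and −1.31, −1.36 and −1.34 with knockdown.

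The start of the coding region itself also differed between the fractions. The density of the first CDS segment over that of the whole CDS was 0.892 ± 0.167 in pulldowns and 1.34 ± 0.130 in inputs of the KCl experiment (log2 difference −0.60, permutation p = 2e-05, adjusted p = 0.00028 over 28 comparisons). It was 0.686 ± 0.0373 against 1.19 ± 0.0180 with DHPG and 0.752 ± 0.0248 against 1.25 ± 0.138 with knockdown. With the first CDS segment as reference, the pulldown difference of the abutting segments was −0.33, −0.30 and −0.42 in the KCl experiment (permutation p = 0.00012, 0.00016 and 2e-05), −0.28, −0.16 and −0.29 with DHPG, and −0.32, −0.21 and −0.34 with knockdown. Upstream 5′ UTR segments of the same genes differed by −1.24 between pulldowns and inputs of the KCl experiment (permutation p = 2e-05). The abutting-to-upstream ratio was 1.48 ± 0.136 in pulldowns and 1.58 ± 0.151 in inputs (permutation p = 0.100). It was 1.43 against 1.77 with DHPG (exact permutation p = 0.1) and 1.61 against 1.89 with knockdown (p = 0.0286, adjusted p = 0.133), without overlap. The ratio of segments under 50 nt to those over 150 nt was 2.70 ± 0.286 and 2.49 ± 0.231 (permutation p = 0.0593). It was 2.54 against 2.58 with DHPG and 2.64 against 2.61 with knockdown. These tests do not pair input and pulldown of a culture. In the KCl experiment the latter ratio was higher in the pulldown of every pair, and the former lower in most.

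Segment by segment, a model of segment and CDS counts of each library tested whether a segment changed relative to its own CDS. After a filter on low counts, 8433 of the 20756 segments were tested in the KCl experiment, 6732 with DHPG and 8459 with knockdown. The knockdown libraries were fitted together with the PSD95-TurboID libraries of the KCl experiment (resting and depolarized, without siRNA), which share the estimate of spread. When the knockdown libraries were fitted alone, 6243 segments were tested. Relative to input, the PSD95 pulldowns had 4319 segments past an edgeR quasi-likelihood FDR of 0.05 (51.2% of those tested), 8 higher (0.0949%) and 4311 lower (51.1%), with a median log2 fold change of −1.42. The Pan pulldowns had 4360 (51.7%), 5 higher (0.0593%) and 4355 lower (51.6%), median −1.37. The DHPG pulldowns had 4643 (69%), 46 higher (0.683%) and 4597 lower (68.3%), median −1.42, and the knockdown pulldowns had 3739 (44.2%), 24 higher (0.284%) and 3715 lower (43.9%), median −1.79. Fitted alone, the knockdown libraries had 3904 of 6243 tested, 30 higher and 3874 lower, a larger share than the 44.2% of the joint fit. With segment columns scaled by their own totals, which takes out the shift of all segments, the split of higher to lower was 271 to 278 for PSD95, 143 to 99 for Pan, 2205 to 1608 for DHPG and 452 to 562 for knockdown. Against the first CDS segment, 229, 238, 778 and 326 segments passed. Without replicate 3 of the KCl experiment, 1 segment passed for PSD95 and 0 for Pan, with 2900 and 2958 at an unadjusted p under 0.05 and a median log2 fold change of −1.41 for PSD95. For knockdown, 1794 passed without the libraries numbered 1 and 2144 without those numbered 2.

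**Figure D3:**
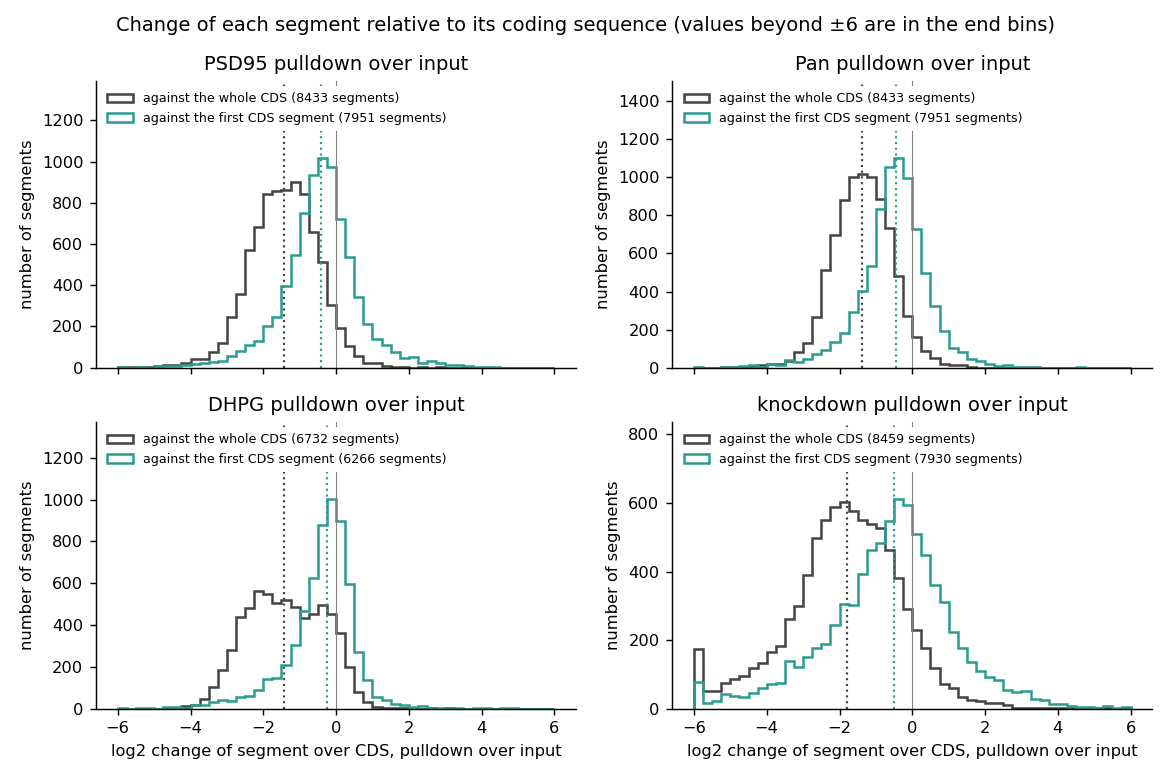
Number of segments by log2 fold change of pulldown over input relative to the same gene's CDS, for the PSD95, Pan, DHPG and knockdown comparisons (values beyond ±6 in the end bins). Curves are drawn against the whole CDS and against the first CDS segment. Vertical lines mark their medians, at −1.42, −1.37, −1.42 and −1.79 against the whole CDS, where most segments lie below 0. Against the first CDS segment the medians are −0.41, −0.46, −0.26 and −0.51.

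Of the few that were higher in pulldowns, Rabggtb and Rpl32 were called in all 4 comparisons. Rabggtb encodes the β subunit of the enzyme that prenylates Rab proteins, and its 252-nt segment lies at chr3:153912060-153912311 on the minus strand. Its relative density was 0 to 0.409 in the 19 inputs (median 0.144) and 0.233 to 30.4 in the 19 pulldowns (median 4.2). Within an experiment the ranges were apart in PSD95 cultures (0.00653 to 0.405 in inputs and 0.875 to 6.69 in pulldowns) and with DHPG (0.336 to 0.409 and 8.04 to 15.6), and overlapped only in Pan cultures (0 to 0.292 and 0.233 to 12.1). The fitted log2 fold changes were 5.90 ± 0.96 (SE) for PSD95, 3.64 ± 0.94 for Pan, 5.03 ± 0.28 for DHPG and 6.49 ± 0.90 for knockdown (edgeR adjusted p = 0.0002, 0.00353, 1.57e-13 and 6.3e-05). It was higher in 6 of 6, 6 of 6, 3 of 3 and 4 of 4 pairs, which the rule that named it requires.

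The Rabggtb segment contains the annotated small nucleolar RNA gene Snord45c (chr3:153912125-153912204). Rpl32, another protein of the large ribosomal subunit, has a 451-nt segment at chr6:115807898-115808348 on the minus strand that contains Snora7a (chr6:115807975-115808114). Its relative density was 0.111 to 0.374 in inputs (median 0.211) and 0.332 to 6.09 in pulldowns (median 0.766), and the fitted log2 fold changes were 2.76, 1.26, 2.50 and 2.47. In all, 41 of the 20756 segments overlapped an annotated small RNA, and 34 of these were tested in the KCl experiment. Of the 34, 2 were called higher and 19 lower for PSD95, beside 0.0949% and 51.1% of all segments, and 2 higher and 20 lower for Pan, beside 0.0593% and 51.6%. With DHPG, 4 of 29 were higher, Eif3j1, Grcc10, Rabggtb and Rpl32, and 21 lower, beside 0.683% and 68.3% of all segments. With knockdown, 2 of 33 were higher and 15 lower, beside 0.284% and 43.9%. What share of the fragments in these segments came from the small RNAs was not tested.

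Others called higher in PSD95 pulldowns, all chosen for naming after their values were seen, were Adarb1, an RNA-editing adenosine deaminase (log2 fold change 3.22 ± 0.86), Mt1, a metallothionein (1.56 ± 0.52), Pianp (2.34), Brd3os (1.75), B230307C23Rik (3.00) and 9330159F19Rik (3.42). In Pan pulldowns they were Tbca, a tubulin-folding cofactor (1.06 ± 0.39), Gng3, a G-protein γ subunit (1.47), and Mea1 (1.24). Adarb1 was also called with DHPG (2.53 ± 0.40) but not in Pan pulldowns (1.38 ± 0.82, edgeR adjusted p = 0.147). Tbca had a log2 fold change of −1.32 in Pan pulldowns when its segment was taken alone, without the CDS, so its count fell less than that of its CDS.

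**Figure D4:**
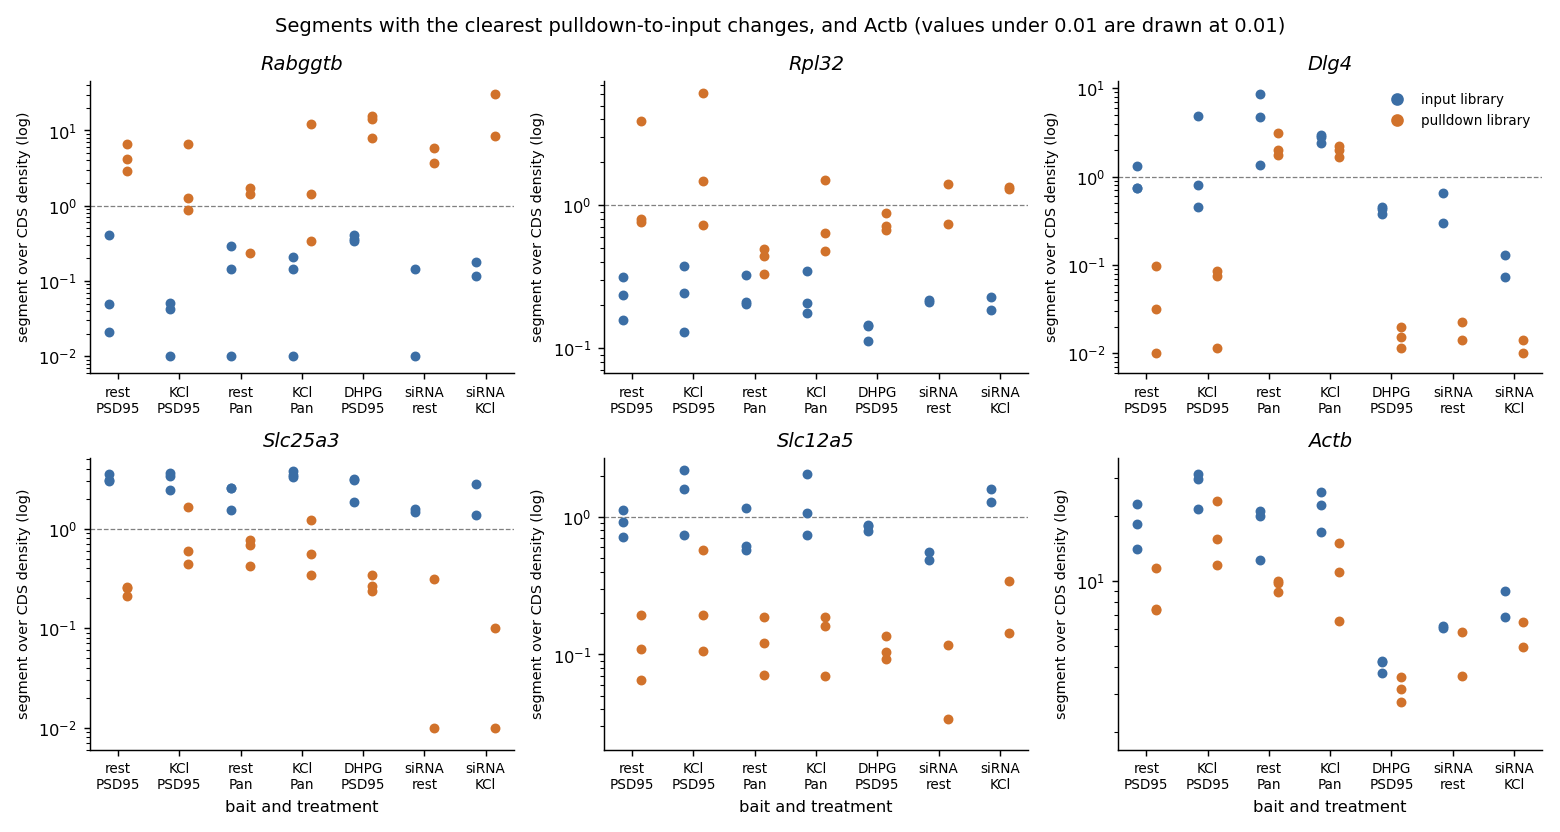
Relative density (log axis, values under 0.01 drawn at 0.01) of the segments of Rabggtb, Rpl32, Dlg4, Slc25a3, Slc12a5 and Actb in each library, by experiment and fraction. Points are libraries. Over all libraries Rabggtb and Rpl32 have higher medians in pulldowns (4.2 and 0.766 against 0.144 and 0.211 in inputs), with overlap in Pan cultures, and Slc25a3 and Slc12a5 lie lower in each experiment. Dlg4 lies lower in PSD95-TurboID cultures and overlaps in Pan cultures. The ranges of Actb overlap in PSD95 cultures of the KCl experiment and in knockdown cultures.

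Dlg4, the gene of PSD95 itself, had the smallest p among the segments that fell in PSD95 pulldowns. Its 41-nt segment is at chr11:70018879-70018919 on the plus strand, on a transcript whose CDS is 822 nt. The relative density was 0.457 to 4.93 in PSD95 inputs (median 0.785) and 0.00949 to 0.0979 in PSD95 pulldowns (median 0.0539), with no overlap, and the log2 fold change was −4.74 ± 0.60 (edgeR adjusted p = 7.41e-05). It was −4.73 with DHPG and −3.93 with knockdown, both in PSD95-TurboID cultures. In Pan cultures it was 1.37 to 8.64 in inputs and 1.68 to 3.11 in pulldowns, with a log2 fold change of −0.70 ± 0.57 (adjusted p = 0.282). The segment taken alone had −1.0 in PSD95 pulldowns (adjusted p = 0.0765). The PSD95-TurboID construct carries PSD95 amplified from rat, per the methods, and the deposited counts do not separate its reads from those of the endogenous gene.

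Other segments that fell are described by the comparison that named them. Slc25a3, named for PSD95 pulldowns, the mitochondrial phosphate carrier, has a segment of 4 nt, so that every fragment counted there covered the start codon. Its density was 1.36 to 3.84 in inputs (median 3.02) and 0 to 1.63 in pulldowns (median 0.344), overlapping in range, with log2 fold changes of −2.80 ± 0.39, −2.11 ± 0.36, −3.28 ± 0.29 and −4.12 ± 0.69 for PSD95, Pan, DHPG and knockdown. Against the first CDS segment, the PSD95 value was −0.71. Slc12a5, the neuronal potassium-chloride cotransporter KCC2, named for Pan pulldowns, has 420 nt. Its density was 0.487 to 2.19 in inputs (median 0.871) and 0.0339 to 0.577 in pulldowns (median 0.122), and its log2 fold changes were −2.79 ± 0.44, −2.92 ± 0.44, −2.92 ± 0.20 and −2.75 ± 0.55.

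Wdr6, a subunit of a tRNA 2′-O-methyltransferase, fell from a median density of 1.93 in inputs to 0.216 in pulldowns, with log2 fold changes of −3.01, −2.53, −3.31 and −3.61. Its DHPG value was +0.06 when the first CDS segment was the reference. Psmc5, an ATPase of the 26S proteasome, had a log2 fold change of −2.84 ± 0.41 for Pan against −1.41 ± 0.41 for PSD95; the difference between the ligases was not tested. Plppr3, a phospholipid phosphatase-related membrane protein of neurons, had −3.01, −2.70, −3.34 and −2.85.

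Among well-counted segments the size of the fall varied widely. Marcks, a membrane-associated actin-binding protein, had −0.51 ± 0.30 in PSD95 pulldowns (edgeR adjusted p = 0.150), and Atf4, the transcription factor of the integrated stress response, −0.51 ± 0.35 (adjusted p = 0.205). Actb had −0.90 ± 0.31, past the threshold. Rack1, a scaffold on the small ribosomal subunit, had −2.27 ± 0.37, and Eef2, the translocase of elongation, −2.34 ± 0.42.

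Gene lists showed how this was spread over functions. They were not tested as sets, and the counts are to be read beside the share of all tested segments that fell in the same comparison, which was 51.1% for PSD95, 51.6% for Pan and 68.3% with DHPG, and beside a median of −1.42 for PSD95. Scaled by segment totals, 3.21% of all segments were higher and 3.3% lower for PSD95, and 32.8% higher and 23.9% lower with DHPG. Against the first CDS segment, 0.0503% were higher and 2.83% lower for PSD95, 0.0126% and 2.98% for Pan, and 0.83% and 11.6% with DHPG. Of 26 tested segments of postsynaptic density proteins, 20 fell in PSD95 pulldowns and 0 rose, with a median log2 fold change of −1.85. The AMPA receptor subunit Gria2 had −2.66 ± 0.54, the NMDA receptor subunit Grin1 −2.0 ± 0.45 and the kinase Camk2b −1.48 ± 0.41. The Gria2 density was 1.10 to 6.84 in inputs (median 1.91) and 0.114 to 1.89 in pulldowns (median 0.295). In Pan pulldowns 21 of 26 fell (median −1.78 against −1.37 for all) and with DHPG 20 of 24 (median −2.23 against −1.42). Scaled by segment totals, 5 of 26 were lower and 0 higher for PSD95 (median −0.42 against −0.05 for all) and 13 of 24 lower and 3 higher with DHPG (median −0.64 against 0.14). With the first CDS segment as reference, 1 of 25 was lower for PSD95 (median −0.71 against −0.41), 0 of 25 for Pan (median −0.63 against −0.46) and 6 of 23 with DHPG (median −0.29 against −0.26).

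Ribosomal protein segments were at the other end. Of 53 tested, 4 fell in PSD95 pulldowns (Rpl13, Rpl18, Rpl5 and Rps16) and 1, Rpl32, rose, with a median of −0.51. With DHPG, 6 of 45 fell and 5 rose (Rpl10a, Rpl29, Rpl32, Rpl37a and Rpl41), with a median of 0.01 against −1.42 for all. Scaling segments by their own totals moves the median of all segments from −1.42 to −0.05 for PSD95 and to 0.14 with DHPG, and the lists move up with it, so their values on that scale are read against these medians. There, 12 of 53 ribosomal protein segments were higher and 0 lower for PSD95 (median 0.88) and 38 of 45 higher and 1 lower with DHPG (median 1.58). When taken against the first CDS segment, 1 of 40 was higher and 0 lower for PSD95 (median −0.43 against −0.41) and 2 of 34 higher and 0 lower with DHPG (median 0.11 against −0.26). Their relative density in inputs was low from the start, at 0.451 to 0.830 (median 0.568), below that of all segments in 19 of 19 inputs. Oxidative phosphorylation subunits had 28 of 71 lower and 0 higher for PSD95 (median −0.83), and 22 of 66 lower and 1 higher, Sdhc, with DHPG (median −0.22), and on the scale of segment totals 14 of 71 were higher and 0 lower for PSD95 (median 0.61) and 48 of 66 higher and 7 lower with DHPG (median 1.34). For this list 0 of 69 passed for PSD95 against the first CDS segment (median −0.23), and 2 of 62 were higher and 3 lower with DHPG (median 0.0045). Cox7b and Cox8a, subunits of cytochrome c oxidase, had −0.68 ± 0.34 (adjusted p = 0.0889, and 0.0373 without replicate 2 of the depolarized PSD95 pulldowns) and −0.79 ± 0.33 (adjusted p = 0.0448) for PSD95.

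Of 33 tested initiation factor segments, 13 fell and 0 rose for PSD95 (median −1.04), among them Eif3a, the largest eIF3 subunit, at −2.11 ± 0.50. Of 13 elongation factor and other terminal oligopyrimidine genes, 5 fell (Eef2, Eif3f, Pabpc1, Rack1 and Tpt1; median −1.06). Of 20 immediate early genes, 8 fell (Arc, Bdnf, Dusp1, Dusp5, Egr4, Homer1, Ier2 and Npas4; median −0.98). Of 9 genes of the integrated stress response known for upstream open reading frames, 6 fell (median −1.55). The 10 listed stress genes had a relative density of 2.89 to 7.60 in inputs (median 5.66), above that of all segments in 19 of 19 inputs. Atf4 had 3.42 to 11.4 in inputs (median 6.90) and 1.81 to 10.3 in pulldowns (median 5.47), with overlapping ranges. Of 12 tested genes whose 5′ UTRs the study used in reporters or named, a list chosen by the study with these samples in view, 5 fell (Apaf1, Cptp, Gria2, Mphosph9 and Polg; median −1.03). Marker segments fell in 7 of 11 for neurons (median −1.06) and 4 of 8 for astrocytes (median −1.58). Scaled by segment totals, with −0.05 for all segments, the PSD95 medians were 0.31 for initiation factors (1 higher, 0 lower), 0.40 for elongation factors and terminal oligopyrimidine genes (2 higher, 2 lower), 0.44 for immediate early genes (5 higher, 0 lower), 0.25 for the study's list (0 higher, 1 lower) and 0.39 for neuron markers (2 higher, 0 lower), and were −0.11 for stress genes (1 higher, 0 lower) and −0.36 for astrocyte markers (0 higher, 1 lower). Those lower for PSD95 against the first CDS segment numbered 0 of 30 initiation factors, 1 of 11 elongation factor and terminal oligopyrimidine genes, 3 of 17 immediate early genes, 2 of 9 stress genes, 0 of 10 of the study's list, 0 of 10 neuron markers and 1 of 7 astrocyte markers, with 0 higher in each.

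The next comparison was of depolarized with resting cultures. The summed density of the 3 length classes did not differ past the threshold. In inputs (6 against 6) the log2 difference was 0.07, 0.05 and 0.13 in the 3 classes (exact permutation p = 0.366, 0.665 and 0.305), and in pulldowns 0.19, 0.19 and 0.30 (p = 0.504, 0.554 and 0.383), or 0.01, 0.01 and 0.13 without replicate 2 of the depolarized PSD95 pulldowns. With the first CDS segment as reference the inputs turned direction, to −0.17, −0.21 and −0.10 (exact permutation p = 0.00217, 0.00217 and 0.0801, adjusted p = 0.00909, 0.00909 and 0.149). The first CDS segment itself was denser relative to the whole CDS in depolarized than in resting inputs, at 1.42 ± 0.137 and 1.26 ± 0.0560 (exact permutation p = 0.0368, adjusted p = 0.136). The abutting-to-upstream ratio was also higher in depolarized inputs, at 1.67 ± 0.134 and 1.49 ± 0.120, higher in 5 of 6 same-numbered pairs (exact permutation p = 0.039, adjusted p = 0.136). In genes with upstream 5′ UTR segments, a measure taken up after its values were seen, the abutting density was 1.81 to 2.59 in depolarized inputs (mean 2.27 ± 0.304) and 1.58 to 1.95 in resting inputs (1.79 ± 0.137), with overlap. It was higher after KCl in 6 of 6 same-numbered pairs (log2 difference 0.33, exact permutation p = 0.00866 over samples, adjusted p = 0.0346 over 4 tests). With the replicate number as a block the exact p was 0.0312, the smallest that 6 pairs allow (adjusted p = 0.125). In pulldowns it was 1.00 ± 0.471 and 0.703 ± 0.142, higher in 4 of 6 pairs (exact permutation p = 0.221), and the depolarized mean was 0.849 ± 0.312 without replicate 2 of the PSD95 group, which had 1.78.

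Segment by segment, 8 of 8433 changed with KCl in inputs (0.0949%; edgeR quasi-likelihood FDR of 0.05), 7 higher (0.083%) and 1 lower (0.0119%). In PSD95 pulldowns 1 changed (0.0119%), with 904 at an unadjusted p under 0.05, 166 by the likelihood ratio test, 44 by DESeq2 and 9 with the replicate number as a block. Without replicate 2 of the depolarized PSD95 pulldowns, 0 of 8851 changed, with 582 at an unadjusted p under 0.05. The median log2 change of all tested segments went from 0.57 to −0.03 without it, and 24 of 103 segments chosen for naming changed sign. In Pan pulldowns 0 changed (0%), with 392 at an unadjusted p under 0.05, 11 by the edgeR likelihood ratio test and 4 by DESeq2. The change differed between PSD95 pulldowns and inputs for 0 segments (0%), with 290 at an unadjusted p under 0.05 and 0 by the likelihood ratio test or DESeq2. With no change at all, a share of about 0.05 of tested segments would have an unadjusted p under 0.05. The 392 and 290 lie below that share, and the 904 and 582 above it. The input count also depended on the method. It was 115 by the likelihood ratio test, 70 by DESeq2, 47 with the replicate number as a block, 19 without replicate 2 of the depolarized PSD95 pulldowns, and 0 without replicate 2 or without replicate 3. On simulated counts with the spread of these libraries, 47% of 4-fold and 7% of 2-fold changes were recovered in inputs and 0% of either in PSD95 pulldowns, and 10% of the segments called in simulated inputs were unchanged ones. The simulation gave a segment the same level relative to its CDS in inputs and pulldowns, unlike the data. Recovery at the real segment counts may therefore differ.

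The 7 that rose were Apba1, a presynaptic adaptor that binds Munc18, Mapk6, the atypical MAP kinase ERK3, Sh3kbp1, an endocytic adaptor, Ybx1, an mRNA-binding protein, Scap, the escort of the sterol-regulated SREBP factors, Mprip, which binds myosin phosphatase and actin, and Irs1, the insulin receptor substrate. The last 5 fall outside the naming rule and were named after their values were seen. Egr1, an activity-induced transcription factor, was the 1 that fell. Apba1 has a 71-nt segment at chr19:23892735-23892805 on the plus strand. Its relative density was 0.704 to 1.49 in 6 resting inputs (median 1.02) and 1.89 to 19.5 in 6 depolarized inputs (median 7.99), with no overlap, and the log2 fold change was 2.97 ± 0.43 (adjusted p = 0.00109). Mapk6 has 618 nt at chr9:75398134-75398751 on the minus strand. Its density went from 0.303 to 0.958 at rest (median 0.604) to 2.04 to 6.56 after KCl (median 3.85), with no overlap (2.75 ± 0.43, adjusted p = 0.00242).

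The others were also separated by state in inputs. Sh3kbp1 had 1.74 to 3.28 at rest and 8.62 to 22.0 after KCl (2.45 ± 0.41), and Ybx1 0.422 to 1.04 and 2.30 to 3.43 (2.00 ± 0.36). Scap had 12.6 to 17.1 and 44.1 to 118 (2.15 ± 0.41), the highest densities of the 7. Mprip had 1.62 to 2.95 and 7.22 to 12.4 (2.12 ± 0.41), and Irs1 0.663 to 0.889 and 1.74 to 3.17 (1.64 ± 0.34, adjusted p = 0.0476). None of the 7 overlaps another gene's CDS.

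The coding level of all 7 was lower after KCl. The median CDS level went from 336 CPM in resting to 57.4 CPM in depolarized inputs for Apba1, from 65.9 to 6.64 for Mapk6, from 50.6 to 12 for Sh3kbp1, from 294 to 96.8 for Ybx1, from 46.4 to 14 for Scap, from 155 to 47.6 for Mprip and from 142 to 51.4 for Irs1, and in none did the ranges overlap. The segment taken alone, without its CDS, did not pass the threshold for any of them, with log2 fold changes of 0.50, −0.37, 0.19, 0.50, 0.57, 0.36 and −0.06 in the same order (edgeR adjusted p = 1.00 for each). With the first CDS segment as reference, Apba1 (3.05, edgeR adjusted p = 3.02e-06) and Mapk6 (4.47, 0.00146) still passed, while Scap had 1.57 (0.91), Mprip 0.53 and Ybx1 0.48. Irs1 also passed (1.63, 0.00208). Its value against the whole CDS was almost the same (1.64), so this reference is no separate check for it. Sh3kbp1 was not tested against its first CDS segment.

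Egr1 ran the other way on a 1666-nt segment. Its density fell from 0.880 to 1.66 at rest (median 1.16) to 0.248 to 0.444 after KCl (median 0.395), with a log2 fold change of −1.66 ± 0.33 (adjusted p = 0.0216). Both counts rose, the CDS level from 178 CPM (149 to 278) to 2253 CPM (1903 to 2865), and the segment level from 201 CPM (137 to 394) to 1003 CPM (492 to 1163). The segment alone had a log2 fold change of 1.87 (adjusted p = 0.000786), so the segment rose by less than its CDS. The value was −0.32 when the first CDS segment was the reference.

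**Figure D5:**
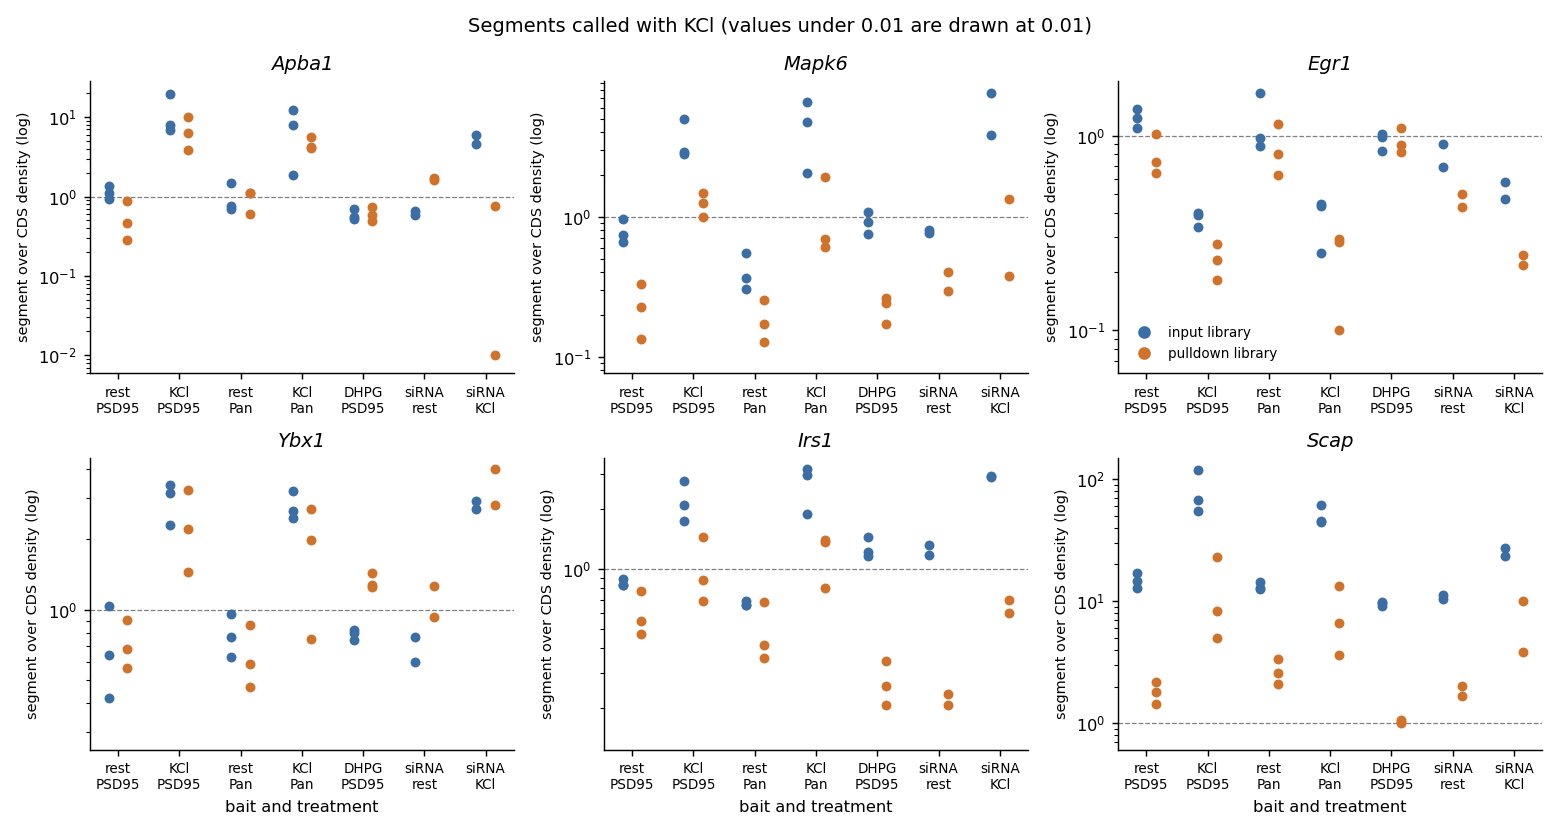
Relative density (log axis, values under 0.01 drawn at 0.01) of the segments of Apba1, Mapk6, Egr1, Ybx1, Irs1 and Scap in each library, by experiment, fraction and state. Points are libraries. In inputs of the KCl experiment the depolarized values lie above the resting values for all but Egr1, which lies below (1.16 and 0.395 as medians).

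Pulldowns and knockdown cultures give these genes' values in other libraries. In PSD95 pulldowns, Apba1 was the 1 segment past the threshold, at 3.63 ± 0.65 (adjusted p = 0.0383), but not without replicate 2 of the depolarized PSD95 pulldowns (3.23, adjusted p = 0.349), nor without all libraries numbered 2 (3.69, adjusted p = 0.818) or 3 (3.36, adjusted p = 1). The others had 2.45 (Mapk6), 2.44 (Sh3kbp1), 1.66 (Ybx1), 2.53 (Scap), 2.00 (Mprip), 0.82 (Irs1) and −1.78 (Egr1), none past it, and 2.27, 1.99, 1.36, 1.88, 1.39, 0.47 and −1.93 in the same order without that replicate. In Pan pulldowns the values were 2.35, 2.36, 2.23, 1.41, 1.45, 1.58, 1.38 and −2.02 for Apba1, Mapk6, Sh3kbp1, Ybx1, Scap, Mprip, Irs1 and Egr1, none past it. In knockdown inputs, Apba1 density was 0.652 and 0.585 at rest and 4.60 and 6.0 after KCl, and the log2 fold changes were 3.08 (Apba1), 2.83 (Mapk6), 2.10 (Sh3kbp1), 2.04 (Ybx1), 1.22 (Scap), 2.24 (Mprip), 1.22 (Irs1) and −0.60 (Egr1), with an adjusted p of 1 for each. In knockdown pulldowns Apba1 did not pass the threshold, at −2.10 ± 1.07 (adjusted p = 0.575), with densities of 1.62 and 1.71 at rest and 0 and 0.766 after KCl, on segment counts of 22, 13, 0 and 2. Knockdown pulldowns and pulldowns of the KCl experiment were not tested against each other for it.

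By list, in inputs, 1 of 20 immediate early genes (Egr1) and 0 of the tested segments of the other lists were called, beside 0.0949% of all. The median log2 change was −0.29 for immediate early genes, −0.33 for oxidative phosphorylation, 0.62 for elongation factor and terminal oligopyrimidine genes, 0.48 for postsynaptic density proteins and 0.18 for all tested segments. Against the first CDS segment these medians were −0.17, −0.43, −0.13, 0.23 and −0.099, so that of elongation factor and terminal oligopyrimidine genes turned direction, and 2 of 25 postsynaptic segments were called higher beside 0.214% of all. Scaled by segment totals, 3 of 20 immediate early genes were lower and 1 higher, 1 of 71 oxidative phosphorylation segments was lower and 1 of 26 postsynaptic segments higher, beside 0.403% of all segments higher and 0.0949% lower. Atf4 had 6.88 to 11.4 at rest and 3.84 to 6.90 after KCl in inputs.

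DHPG inputs were compared with the resting PSD95 inputs of the KCl experiment, from other cultures. The density was 2.26 ± 0.0324 against 2.92 ± 0.316 under 50 nt, without overlap (log2 difference −0.36, exact permutation p = 0.1, the smallest possible, adjusted p = 0.162). The differences were −0.34 and −0.37 in the longer classes, with overlap (exact permutation p = 0.2 for both). Treatment and experiment cannot be told apart in these values. Not all segments that changed with KCl are given here for DHPG inputs. The densities there were 0.515 to 0.698 (Apba1), 0.748 to 1.08 (Mapk6) and 0.837 to 1.02 (Egr1). These lay outside the depolarized ranges of the KCl experiment, and those of Apba1 also lay below its resting range. The 6-nt segments differed between experiments in opposite directions. Rpl13 had 435 to 472 in DHPG inputs and 100 to 357 in inputs of the KCl experiment, while Actb had 3.75 to 4.26 and 12.5 to 31.4.

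In the knockdown experiment the target was checked first. The Eif4g2 CDS level was 284 to 337 CPM in the 4 knockdown inputs. It was 538 to 772 CPM in the 6 PSD95 inputs of the KCl experiment, resting and depolarized without siRNA, with no overlap. Its own 86-nt segment, before the GTG start, had a relative density of 0.510 to 1.28 in knockdown inputs and 0.653 to 1.22 in those 6. The summed density of abutting segments in knockdown inputs was 2.61 ± 0.189 against 3.08 ± 0.334 under 50 nt (log2 difference −0.23, exact permutation p = 0.0381, adjusted p = 0.114), and −0.25 and −0.30 lower on the log2 scale in the other classes (exact permutation p = 0.0667 and 0.0857). Taken against the first CDS segment, the differences were −0.10, −0.08 and −0.09 (exact permutation p = 0.219, 0.333 and 0.152). The abutting-to-upstream ratio was 1.89 ± 0.104 in knockdown inputs and 1.59 ± 0.137 in PSD95 inputs of the KCl experiment (exact permutation p = 0.00952, adjusted p = 0.0889). Knockdown and experiment cannot be told apart here.

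KCl changed 0 of 8459 segments in knockdown inputs and 0 in knockdown pulldowns (0% each; edgeR quasi-likelihood test), with 280 and 749 at an unadjusted p under 0.05, 4 and 76 by the likelihood ratio test, 1 and 5 by DESeq2, and 13 and 5 of 6243 with knockdown libraries fitted alone. The 280 lies below the share of about 0.05 that no change at all would give, and the 749 above it. The smallest p in pulldowns was that of Spcs1, a signal peptidase subunit, with 15 and 7 segment counts at rest and 0 and 0 after KCl (edgeR adjusted p = 0.261).

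Knockdown pulldowns were lowest against their inputs for Prrc2b and Nup153. Prrc2b, an RNA-binding protein that associates with initiation factors, has a 54-nt segment at chr2:32182458-32182511 on the plus strand. Its density was 8.39 to 11 in knockdown inputs and 0.140 to 0.298 in knockdown pulldowns (log2 fold change −5.38 ± 0.53, edgeR adjusted p = 1.46e-06). In PSD95 cultures of the KCl experiment it was 3.73 to 10.6 and 0.953 to 8.85 (−0.91 ± 0.40, adjusted p = 0.0604, and −1.29, adjusted p = 0.00418, without replicate 2 of the depolarized PSD95 pulldowns, which had the 8.85). With DHPG it was 9.37 to 11.4 and 0.910 to 2.05 (−2.79 ± 0.24). Nup153, a nuclear pore protein, has 467 nt and had 1.46 to 3.39 in knockdown inputs and 0.0754 to 0.195 in knockdown pulldowns (−4.09 ± 0.45). In PSD95 cultures of the KCl experiment it had 1.25 to 3.19 and 0.719 to 1.57 (−0.89 ± 0.38, adjusted p = 0.0525, and −1.08, adjusted p = 0.0191, without the same library). Against the first CDS segment, the knockdown value of Nup153 was 1.27 (adjusted p = 0.426). The difference between knockdown cultures and those of the KCl experiment was not tested for these genes.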

How the data were processed

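Ribosome-protected fragments from 38 libraries of mouse cortical cultures were analysed. The authors removed 6-nt molecular identifiers, aligned reads over 20 nt to mm10 and counted fragments per annotated segment with plastid. The deposited values are raw counts, with the 5′ end of each fragment of 25 to 100 nt counted at an offset of 0, by strand. Values of 1 offset for all lengths place a fragment at its first base, not at the ribosome's P-site.

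From the deposited counts, 5′ UTR and CDS segments were joined by transcript and coordinate. Of 67238 coding transcripts, 66750 matched a GENCODE annotation on GRCm38 for names (99.3%), and sequence came from the same build. Segments that abut the first CDS segment were kept on the longest transcript of each gene. Relative densities were compared by two-sided exact permutation tests on log2 values (100000 permutations where a group had 12 libraries), adjusted by Benjamini-Hochberg over 21 tests, or 28 for the ratios near the start. Single segments were tested with the quasi-likelihood test of edgeR 4.0.16 in R 4.3.3, in 1 model of segment and CDS counts with a library effect and a segment effect for each group, after filterByExpr, at an FDR of 0.05. DESeq2 1.42.0 and the edgeR likelihood ratio test were alternatives. The p-values of single segments measure the spread between samples of one group, which the authors' methods describe as biological replicates, each combined from several dishes. Permutation tests that pool ligases, states or all libraries measure a spread that also holds differences between groups. The script was tested on simulated counts of these segments.

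Samples were grouped by their labels. Knockdown pulldowns are described in the labels as cytosol, while their virus is given as PSD95-TurboID; the virus was used. Input and pulldown of one number came from 1 culture, and resting and depolarized samples of one number were processed together, per the authors' methods. Across 5130 well-counted segments, the deviations of same-numbered libraries from their group means correlated at −0.0555 to 0.317 (median 0.0919) in the KCl experiment, −0.104 to 0.0508 with DHPG and −0.0339 to 0.0354 with knockdown.

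Members, gene lists and tests were chosen with earlier results of these data known. The naming rule took, per comparison, the 2 segments of smallest p in each direction that passed and moved alike in all pairs (or the 1 of smallest p where none passed), per class the 3 with most counts and the 2 of highest and lowest relative density, Eif4g2, Dlg4, and up to 4 members of each list by counts. Alternatives were other references and scalings, filters, tools, transcripts, the replicate block and leaving out replicates. Some segments that this rule names are not reported here.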

Additional observations from a re-analysis of the deposited data

Results flagged for a closer look

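Replicate 2 of the depolarized knockdown pulldowns stood apart from the other 3 knockdown pulldowns in segments under 50 nt. Its relative density was 1.18, the highest of the 4, against 1.02 in the nearest, and the gap took up 0.93 of the range of the 4 libraries. The 4 libraries mix resting and depolarized cultures. The threshold for such a gap is passed by chance in about 1 in 20 sets, and 21 sets were looked at. All 4 values lay below the lowest knockdown input, at 2.45.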

How the results depend on the processing

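The pulldown differences in relative density kept their direction under every alternative run, within −1.52 to −1.01 on the log2 scale when 1 replicate was left out, and were smaller with the first CDS segment as reference. Over all relative densities, 218 of 224 alternatives kept direction and side of the threshold and 6 reversed, all KCl differences with the first CDS segment as reference. These were −0.17, −0.21 and −0.10 in inputs and −0.12, −0.16 and −0.015 in pulldowns for under 50, 50 to 150 and over 150 nt. Counts of changed segments moved by over 1.5 times in 49 of 139 alternatives, and the cause was not tested beyond what each setting changes. For KCl in inputs, in PSD95 pulldowns and in Pan pulldowns (8, 1 and 0), the edgeR likelihood ratio test gave 115, 166 and 11, DESeq2 70, 44 and 4, segments scaled by their own totals 42, 6 and 2, and segment counts alone 33, 23 and 11. With no filter on low counts the first pair gave 18 and 4, and with the first CDS segment as reference 17 and 3. With the replicate block, which pairs samples processed together, the counts were 47, 9 and 2. Leaving out 1 replicate gave 0 to 10, 0 to 5 and 0 to 1. Without replicate 2 of the depolarized PSD95 pulldowns, an alternative added after the data were seen, inputs had 19 and PSD95 pulldowns 0 segments changed with KCl, and 5189 (PSD95) and 4640 (Pan) differed between pulldown and input. For KCl in knockdown inputs and pulldowns (0 and 0), the likelihood ratio test gave 4 and 76, DESeq2 1 and 5, segment counts alone 8 and 5, and knockdown libraries fitted alone 13 and 5. No filter gave 1 in knockdown inputs, and own totals and the first CDS segment gave 2 each in knockdown pulldowns. For pulldown over input, own totals gave 549 (PSD95), 242 (Pan) and 1014 (knockdown), and the first CDS segment 229, 238 and 326, and 778 with DHPG. Leaving out 1 replicate gave 1 to 4136, 0 to 3752 and 1794 to 3000, and 4211 to 4822 with DHPG, the lowest PSD95 and Pan values being those without replicate 3. For knockdown, whose libraries are numbered 1 and 2, these were 1794 and 2144 without either number, and the 3000 left out only libraries of the KCl experiment, which share the fit. The replicate block moved none of these by over 1.5 times. Of the named segments, 282 of 326 alternatives kept their call and 5 reversed. With the first CDS segment as reference these were Wdr6 with DHPG (0.063) and Nup153 with knockdown (1.27), and with segment counts alone Egr1 (1.87) and Mapk6 (−0.37) for KCl in inputs and Tbca in Pan pulldowns (−1.32). On counts simulated with this spread, 0% of 2-fold and 4-fold KCl changes were recovered in PSD95 pulldowns and 7% and 47% in inputs. For DHPG pulldown over input, a comparison of fractions and not a response to treatment, 47% and 96% were recovered. The simulated segments had the same level relative to their CDS in inputs and pulldowns, unlike the data, so recovery at the real segment counts may differ.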
